A study of Rattus norvegicus with 6 samples.

Results

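The genes described here encode the machinery that shows peptides to T cells: every rat gene of the table whose name begins with RT1-, the name of the rat major histocompatibility complex (MHC), together with B2m, Tap1, Tap2, Tapbp, Cd74, Nlrc5 and Ciita. They number 38 of the 32623 genes in the table. They were followed in 6 RNA-sequencing libraries of primary ventricular muscle cells from Sprague-Dawley rats at postnatal day 1 to 3, 3 libraries of each of 2 groups. The siNC group (labelled LPS) received the control small interfering RNA siNC and the siMettl3 group (labelled LPS_SI) received siMETTL3, the RNA against the m6A methyltransferase Mettl3. Transfection lasted 24 h and was followed in both groups by 6 h of lipopolysaccharide (LPS), so LPS is shared and no value below is a response to it. One preparation of cells, pooled from several animals, supplied all libraries. The p-values therefore measure the spread between these libraries, which may be technical.

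MHC class I molecules consist of a polymorphic heavy chain and the invariant light chain beta-2 microglobulin, and are made by nearly all nucleated cells. The transporter Tap1-Tap2 carries peptides from the cytosol into the endoplasmic reticulum, where tapasin (Tapbp) holds the empty class I molecule beside it. Class II molecules are made mainly by professional antigen-presenting cells, travel with the invariant chain Cd74 and exchange it for peptide with the help of DM. Nlrc5 and Ciita are the transactivators of the class I and class II genes, and interferon raises both pathways.

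Short stretches ahead of 6 of these genes are shown, chosen with their results known. The stretches differ in 2 sequence motifs. Tap1, RT1-N3, RT1-N2 and RT1-T24-4 passed the test described below, and B2m and RT1-A2 did not. A link between motif and change was not tested. The stretches are the 250 bases before the annotated start in RefSeq, read 5′ to 3′ on the gene's strand. Capitals mark the core of the interferon-stimulated response element (ISRE: GAAA, a pair of any bases, GAAA, on either strand) and the NF-kB consensus. The strand is that of GRCr8, where Tap1 lies opposite to its orientation in the deposited table.
Tap1 (GRCr8 chr20:4668544-4668793, minus strand): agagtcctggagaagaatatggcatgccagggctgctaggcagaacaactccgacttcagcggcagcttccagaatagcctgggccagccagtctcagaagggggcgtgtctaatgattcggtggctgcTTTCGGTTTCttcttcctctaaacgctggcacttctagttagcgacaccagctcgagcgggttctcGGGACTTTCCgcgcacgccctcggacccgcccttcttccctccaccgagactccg
B2m (GRCr8 chr3:129549080-129549329, plus strand): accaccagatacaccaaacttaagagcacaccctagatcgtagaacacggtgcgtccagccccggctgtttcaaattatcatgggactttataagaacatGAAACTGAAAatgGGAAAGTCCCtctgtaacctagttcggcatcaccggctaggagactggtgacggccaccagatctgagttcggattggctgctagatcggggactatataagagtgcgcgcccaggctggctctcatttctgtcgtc
RT1-N3 (GRCr8 chr20:2666239-2666488, plus strand): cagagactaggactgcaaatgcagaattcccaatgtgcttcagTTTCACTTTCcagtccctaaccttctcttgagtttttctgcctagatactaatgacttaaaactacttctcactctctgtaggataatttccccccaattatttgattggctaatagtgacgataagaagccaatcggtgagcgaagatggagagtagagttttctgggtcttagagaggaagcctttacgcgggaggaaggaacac
RT1-N2 (GRCr8 chr20:2646080-2646329, plus strand): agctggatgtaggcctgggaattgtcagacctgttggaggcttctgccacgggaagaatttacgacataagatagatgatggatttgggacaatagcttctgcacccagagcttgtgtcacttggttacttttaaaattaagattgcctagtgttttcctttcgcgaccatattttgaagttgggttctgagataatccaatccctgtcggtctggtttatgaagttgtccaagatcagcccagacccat
RT1-A2 (GRCr8 chr20:4872621-4872870, plus strand): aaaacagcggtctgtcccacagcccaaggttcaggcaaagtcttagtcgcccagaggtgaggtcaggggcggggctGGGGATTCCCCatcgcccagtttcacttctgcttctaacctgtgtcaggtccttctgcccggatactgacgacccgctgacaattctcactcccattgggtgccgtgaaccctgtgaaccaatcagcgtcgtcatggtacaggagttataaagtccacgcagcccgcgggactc
RT1-T24-4 (GRCr8 chr20:2689083-2689332, plus strand): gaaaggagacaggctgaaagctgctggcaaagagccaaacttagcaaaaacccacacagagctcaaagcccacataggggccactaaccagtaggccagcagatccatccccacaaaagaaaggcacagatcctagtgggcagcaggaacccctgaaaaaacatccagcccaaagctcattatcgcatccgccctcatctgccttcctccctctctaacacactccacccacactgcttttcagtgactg
In the window of Tap1 the ISRE core began 121 bases and the NF-kB consensus 55 bases before the start. B2m carried both motifs, at 150 and 137 bases. Of the 2 motifs, RT1-N3 matched the ISRE core alone, at 207 bases. RT1-A2 matched the NF-kB consensus alone, in 2 overlapping matches at 174 and 173 bases. Neither motif was found in the windows of RT1-N2 and RT1-T24-4. Only exact matches were looked for, so a window without one may hold a near match.

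Total counts per library ran from 71202469 to 76668751. Levels are given as FPKM, fragments scaled to gene length and library size by the authors, and can be compared between genes. Of the 38 members 24 averaged 1 FPKM or more across all libraries and were tested, as part of a fit of all 13105 genes at that level. Gene coordinates below are those of the table, which states no genome build. The light chain was far above every heavy chain: B2m (ENSRNOG00000017123, plus strand of chromosome 3, 114087287 to 114093309) measured 445, 497 and 394 FPKM in siNC replicates 1, 2 and 3 and 543, 471 and 552 FPKM in siMettl3 replicates 1, 2 and 3. The heavy chain with the highest level was RT1-S3, a homologue of the mouse Qa-1 molecule that is recognised by natural killer cell receptors, with 66.6 ± 5.47 and 73.6 ± 1.62 FPKM in siNC and siMettl3 (SD, n = 3). It was followed by the classical class Ia gene RT1-A2 at 32.1 ± 6.70 and 43.7 ± 1.44 FPKM. The summed level of the 21 heavy chain genes was 259.5, 254 and 229 FPKM in siNC and 272, 263 and 281 FPKM in siMettl3. Every siMettl3 library lay above every siNC library, as in 26.4% of all tested genes. The difference in this sum was not tested, and the median log2 difference of all tested genes was 0.07 on deposited FPKM. RT1-S3 made up 26.9% ± 0.605 and 27.1% ± 0.388 of that sum. B2m exceeded it by a factor of 1.80 ± 0.137 in siNC and 1.92 ± 0.110 in siMettl3.

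**Figure D1:**
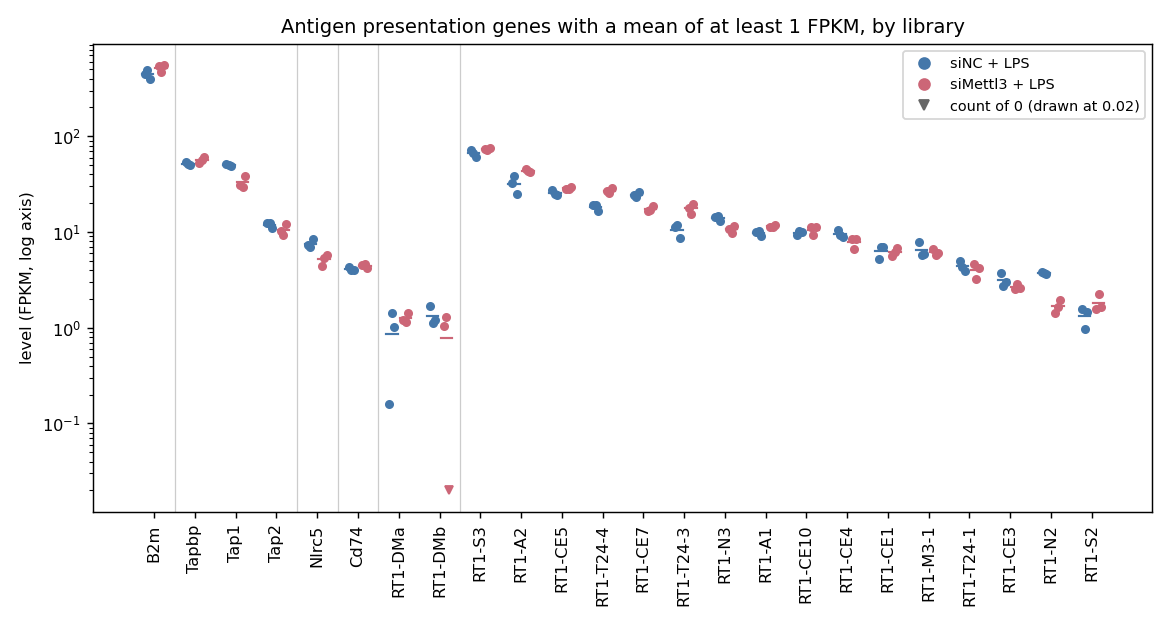
Level of each of the 24 tested members in FPKM on a log axis, with 1 point per library (blue siNC, red siMettl3), a line at each group mean and vertical lines between roles. B2m stands above all heavy chains, and RT1-DMa and RT1-DMb each have 1 library far below the others (triangle: a count of 0, drawn at 0.02).

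The class II side of the pathway was nearly silent. None of the 6 class II chain genes reached 1 FPKM on average. The highest, the beta chain RT1-Db1, had 0.368 ± 0.1002 FPKM in siNC and 0.271 ± 0.0313 FPKM in siMettl3, with counts of 83, 120 and 71 and of 73, 59 and 68. Its alpha partner RT1-Da averaged 0.187 FPKM over the 6 libraries, and the alpha and beta chains RT1-Ba and RT1-Bb averaged 0.122 and 0.0318 FPKM. RT1-Db2 had a count of 0 in the siNC libraries and of 4, 8 and 2 in the siMettl3 libraries, which is too few for a comparison. RT1-Ha had a count of 0 in all 6 libraries, which allows up to 3 counts in each for counting error only. Ciita, which switches the class II genes on, measured 0.344 ± 0.0515 and 0.383 ± 0.0394 FPKM in siNC and siMettl3. Cd74 was more abundant than these chains, with 4.35, 4.02 and 3.998 FPKM in siNC replicates 1, 2 and 3 and 4.49, 4.66 and 4.23 FPKM in siMettl3 replicates 1, 2 and 3. The libraries of the groups overlapped, and the difference did not pass (log2 0.09, SE 0.0717, limma adjusted p = 0.410). The DM antagonists RT1-DOa and RT1-DOb stayed at or under 14 counts in every library. The marker genes of cells rich in class II were low as well: the 8 dendritic and B cell markers summed to 1.09 to 1.22 FPKM in siNC and 0.613 to 0.848 FPKM in siMettl3, and Xcr1 and Ms4a1 had a count of 0 in every library.

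Among class I genes of the M group, RT1-M3-1, which presents formylated peptides, was the one with a level above 1 FPKM. It measured 6.48 ± 1.14 and 6.12 ± 0.443 FPKM in siNC and siMettl3 (log2 -0.06, limma adjusted p = 0.742). The other members of that group, RT1-M2, RT1-M4, RT1-M5, RT1-M6-1 and RT1-M6-2, averaged at most 0.424 FPKM, and RT1-M4 had a count of 0 in all libraries. Together the 14 members under 1 FPKM thus comprise these 5, the 6 class II chains, Ciita and the DO genes.

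The comparison of siMettl3 with siNC asks whether lowering Mettl3 changed these genes under LPS. The target itself was lower in each library of its group, with 18.2, 17.2 and 15.3 FPKM in siNC and 10.3, 10.6 and 9.90 FPKM in siMettl3 (log2 -0.67, SE 0.0741, limma adjusted p = 0.00661). In whole cultures, fewer cells of a type cannot be told apart from less RNA per cell, and markers of macrophages and fibroblasts fell between the same groups. Members of the pathway moved in both directions. Of the 24 tested, 2 rose, 5 fell and 17 did not pass the threshold of 0.05 on the Benjamini-Hochberg adjusted p. That is 29.2% of the members, against 10.9% of all tested genes (6.53% higher and 4.4% lower). edgeR, run on the deposited counts, called the same 7 members, against 9.98% of all genes. DESeq2 called these and RT1-A2 and RT1-CE4, against 18.3% of all. The libraries of 12 members did not overlap between the groups, 6 in each direction, which is 50% of the members, where 37.9% of all tested genes behaved so. The median log2 difference of the members was 0.04, beside 0.07 for all tested genes; after median-ratio scaling these were -0.02 and 0.0058. When FPKM were rescaled by median ratios the same 7 members were called with unchanged signs, while the genes called over the whole table went from 856 higher and 576 lower to 358 higher and 781 lower.

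**Figure D2:**
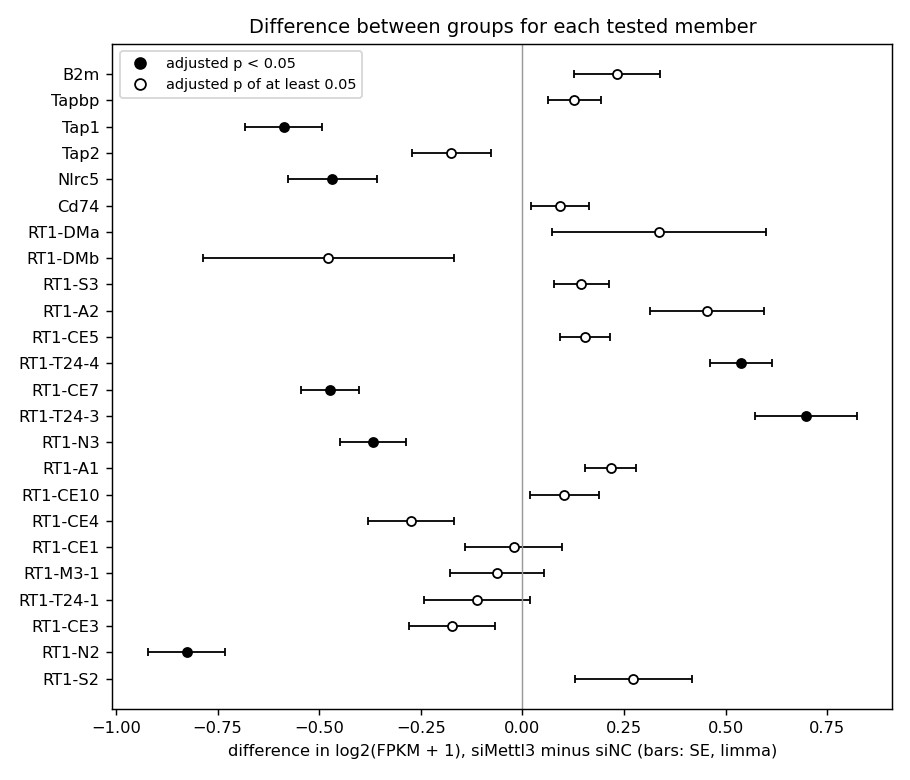
Difference in log2(FPKM + 1) between siMettl3 and siNC for each tested member, with the standard error from limma; filled points passed the threshold. Tap1, Nlrc5, RT1-CE7, RT1-N3 and RT1-N2 lie below 0 and RT1-T24-4 and RT1-T24-3 above it.

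Tap1, a chain of the peptide transporter, fell. The gene (ENSRNOG00000000457, plus strand of chromosome 20, 3979035 to 3989669) measured 51.6, 49.8 and 48.4 FPKM in siNC replicates 1, 2 and 3 and 31.3, 29.6 and 38.3 FPKM in siMettl3 replicates 1, 2 and 3. All siMettl3 libraries lay below all siNC libraries, and siMettl3 replicate 3 was the highest of its group. The level was 66.2% of the control (log2 -0.59, SE 0.0949, limma adjusted p = 0.0178; edgeR -0.67, adjusted p = 0.00959). Its partner Tap2 (ENSRNOG00000000455, plus strand of chromosome 20, 3995544 to 4009587) had 12.4, 12.5 and 11.01 FPKM in siNC and 10.1, 9.38 and 12.0 FPKM in siMettl3. Those groups overlapped, and Tap2 did not pass (log2 -0.17, SE 0.0981, limma adjusted p = 0.265). The ratio of Tap1 to Tap2 was 4.16, 3.99 and 4.40 in siNC and 3.09, 3.16 and 3.18 in siMettl3. Tapasin, the bridge between transporter and heavy chain, was measured at 51.8 ± 1.82 and 56.8 ± 4.03 FPKM in siNC and siMettl3 and did not pass (log2 0.13, limma adjusted p = 0.225). Tap1 was lost without siNC replicate 1 (limma adjusted p = 0.0791), siNC replicate 2 (0.0543) or siMettl3 replicate 1 (0.0716).

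Nlrc5, the class I transactivator (ENSRNOG00000048222, minus strand of chromosome 19, 10905542 to 10976396), fell as well. It had 7.29, 6.97 and 8.37 FPKM in siNC replicates 1, 2 and 3 and 4.39, 5.39 and 5.79 FPKM in siMettl3 replicates 1, 2 and 3, with no overlap between the groups. The log2 difference was -0.47 (SE 0.109, limma adjusted p = 0.0413; edgeR -0.61, adjusted p = 0.0243). This call was the least secure of the 7: it was lost whichever library was left out, at a limma adjusted p from 0.0601 (siMettl3 replicate 3 left out) to 0.113 (siNC replicate 1 left out). It was also lost when genes of any level were tested (0.0779). The light chain B2m had the opposite sign and did not pass (log2 0.23, SE 0.106, limma adjusted p = 0.185), with siMettl3 replicate 2 inside the siNC range, although quantile normalization called it higher (limma adjusted p = 0.0130, with a range of 0.0130 to 0.373 over all alternatives).

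The 16 tested heavy chain genes divided evenly, 8 with a log2 difference above 0 and 8 below. The genes RT1-T24-4 and RT1-T24-3, which the table describes as class I genes of the T24 group, rose. RT1-T24-4 (ENSRNOG00000042905, plus strand of chromosome 20, 3189473 to 3197457) went from 19.2, 19.1 and 16.5 FPKM in the siNC libraries to 26.6, 25.6 and 28.7 FPKM in the siMettl3 libraries (log2 0.54, SE 0.0769, limma adjusted p = 0.0130). RT1-T24-3 (ENSRNOG00000045924, plus strand of chromosome 20, 3226313 to 3233367) went from 11.3, 11.7 and 8.67 to 18.0, 15.6 and 19.5 FPKM (log2 0.70, SE 0.126, limma adjusted p = 0.0224). For both genes each siMettl3 library was above each siNC library. The third gene of the group, RT1-T24-1, measured 4.39 ± 0.542 and 4.01 ± 0.727 FPKM in siNC and siMettl3, with overlapping libraries (log2 -0.11, limma adjusted p = 0.590). RT1-T24-4 was lost without siMettl3 replicate 1 (limma adjusted p = 0.0591), and RT1-T24-3 when siNC replicate 1 (0.0743) or either of siMettl3 replicates 1 and 3 (0.0824 and 0.0636) was left out.

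Among the heavy chain genes that fell, the class Ib gene RT1-N2 (ENSRNOG00000029386, plus strand of chromosome 20, 3146856 to 3150421) had the largest log2 difference among the 24 tested members; with a pseudocount of 0.1 that of RT1-DMb, which did not pass, was larger (-1.39 against -1.12). The level of RT1-N2 was 3.79, 3.72 and 3.68 FPKM in siNC replicates 1, 2 and 3 and 1.42, 1.65 and 1.95 FPKM in siMettl3 replicates 1, 2 and 3. The siNC libraries lay within a narrow range and the siMettl3 libraries all below it, at 44.9% of the control mean. The log2 difference was -0.83 (SE 0.0953, limma adjusted p = 0.00695), compressed by the added 1 at this low level; edgeR gave -1.22 (adjusted p = 0.00514). RT1-N2 was the only member called in all 6 fits with 1 library left out. The related RT1-N3 (ENSRNOG00000000795, plus strand of chromosome 20, 3167079 to 3170945) had 14.5, 14.7 and 13.0 FPKM in siNC and 10.8, 9.68 and 11.6 FPKM in siMettl3 (log2 -0.37, SE 0.0816, limma adjusted p = 0.0370; edgeR adjusted p = 0.0228). RT1-N3 kept its call without siNC replicate 3 and lost it with any other library left out (limma adjusted p from 0.0541, with siMettl3 replicate 3 left out, to 0.123, with siNC replicate 1 left out). It was also lost when genes of any level were tested (0.0629).

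RT1-CE7 (ENSRNOG00000031090, minus strand of chromosome 20, 4694472 to 4896970), a class I gene of the CE region, fell from 24.4, 23.0 and 26.4 FPKM in siNC to 16.5, 17.2 and 18.6 FPKM in siMettl3 (log2 -0.47, SE 0.0717, limma adjusted p = 0.0149). The groups did not overlap. The call was lost without siNC replicate 1 (0.0692) or siMettl3 replicate 1 (0.0658). The model of RT1-CE7 spans 202499 bases and overlaps RT1-CE5, RT1-CE4 and RT1-CE1 on the same strand, among 19 gene models in all. RT1-CE5, which lies over its 5′ end, measured 27.7, 24.7 and 24.6 FPKM in siNC and 28.2, 28.4 and 29.5 FPKM in siMettl3 and did not pass (log2 0.15, limma adjusted p = 0.142). RT1-CE4 was lower in each siMettl3 library, at 10.6, 9.38 and 8.80 FPKM in siNC and 8.36, 6.61 and 8.35 FPKM in siMettl3, and missed the threshold (log2 -0.27, limma adjusted p = 0.136), while DESeq2 called it (adjusted p = 0.0175, with a range of 0.0175 to 0.324 over all alternatives). RT1-CE1, RT1-CE3 and RT1-CE10 had log2 differences of -0.02, -0.17 and 0.10 and did not pass. Heavy chain genes are close copies of each other, and how reads matching several of them were assigned is not given in the sources used here. The division of reads is therefore uncertain among the CE genes and between RT1-A1 and the RT1-A2 model inside it. It may be so among the N and T24 genes as well. RT1-N2, RT1-N3 and RT1-T24-4 each overlap 1 gene model on the other strand and RT1-CE7 overlaps 4. The strand setting is not given either.

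The classical class Ia genes had differences above 0 that missed the threshold. RT1-A2 (ENSRNOG00000030712, plus strand of chromosome 20, 5374985 to 5378539) measured 32.5, 38.5 and 25.2 FPKM in siNC replicates 1, 2 and 3 and 45.1, 43.7 and 42.2 FPKM in siMettl3 replicates 1, 2 and 3, with siNC replicate 3 lowest and no overlap between groups (log2 0.45, SE 0.140, limma adjusted p = 0.0801). DESeq2 called it higher (adjusted p = 0.0464), and over all alternatives the adjusted p ran from 0.0464 to 0.188. RT1-A1 had 9.94, 10.2 and 9.10 FPKM in siNC and 11.3, 11.2 and 11.9 FPKM in siMettl3 (log2 0.22, SE 0.0632, limma adjusted p = 0.0702). The most abundant heavy chain, RT1-S3, had a log2 difference of 0.14 (SE 0.0680, limma adjusted p = 0.196) and its relative RT1-S2 one of 0.27 (limma adjusted p = 0.240). The genes that rose, RT1-T24-3 and RT1-T24-4, summed to 30.6, 30.8 and 25.2 FPKM in siNC and 44.6, 41.2 and 48.1 FPKM in siMettl3, and those that fell, RT1-N2, RT1-N3 and RT1-CE7, to 42.7, 41.4 and 43.2 and 28.8, 28.5 and 32.1 FPKM. These sums follow from the calls and are a description.

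In the order of their starts on chromosome 20, RT1-N2, RT1-S2, RT1-N3, RT1-S3, RT1-T24-4, RT1-T24-3 and RT1-T24-1 follow each other on the plus strand. Within this run both N genes fell, both S genes had differences above 0 without passing, and of the T24 genes RT1-T24-4 and RT1-T24-3 rose. Neighbouring starts in this run lie 8796 to 36840 bases apart, and that of RT1-S3 lies 13366 bases before that of RT1-T24-4. Differences between one gene and the next were not tested.

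**Figure D3:**
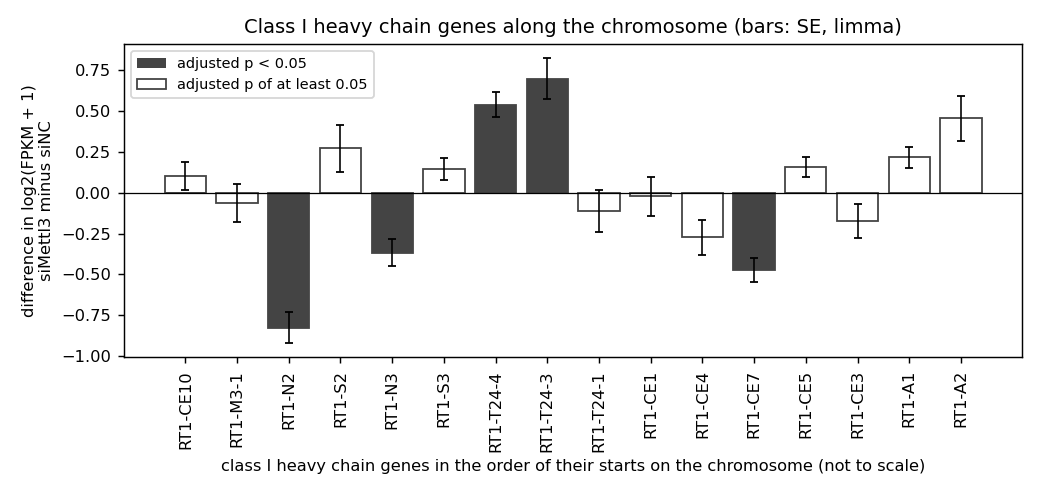
Difference in log2(FPKM + 1) between siMettl3 and siNC for the 16 tested heavy chain genes, in the order of their starts on the chromosome and not to scale, with the standard error from limma; dark bars passed the threshold. RT1-N2 and RT1-N3 lie below 0 and RT1-T24-4 and RT1-T24-3, a few genes further on, above it.

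The DM genes, whose products release the invariant chain fragment from class II, are joined in the table by entries of similar description. RT1-DMa had 0.159, 1.42 and 1.02 FPKM in siNC and 1.21, 1.14 and 1.41 FPKM in siMettl3, so siNC replicate 1 stood apart. RT1-DMb had counts of 235, 150 and 157 in siNC and of 139, 174 and 0 in siMettl3, so siMettl3 replicate 3 did. The table also lists LOC108348072, described as a class II M alpha chain, and LOC108348139, an M beta 1 chain. Whether these are copies of RT1-DMa and RT1-DMb was not tested. In the library where RT1-DMa was low LOC108348072 had 1.53 FPKM, its highest level, and in the library where RT1-DMb was at 0 LOC108348139 had 1.36 FPKM, also its highest. Summed over both entries, RT1-DMa had 1.69, 2.83 and 2.03 FPKM in siNC and 2.46, 2.28 and 2.83 FPKM in siMettl3, and RT1-DMb 2.79, 1.99 and 1.93 and 1.84, 1.93 and 1.36 FPKM. Neither single gene passed (log2 0.34 and -0.48, limma adjusted p = 0.415 and 0.328), nor did the sums, which were chosen after seeing the data (log2 0.16 and -0.25, limma adjusted p = 0.485 and 0.262).

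**Figure D4:**
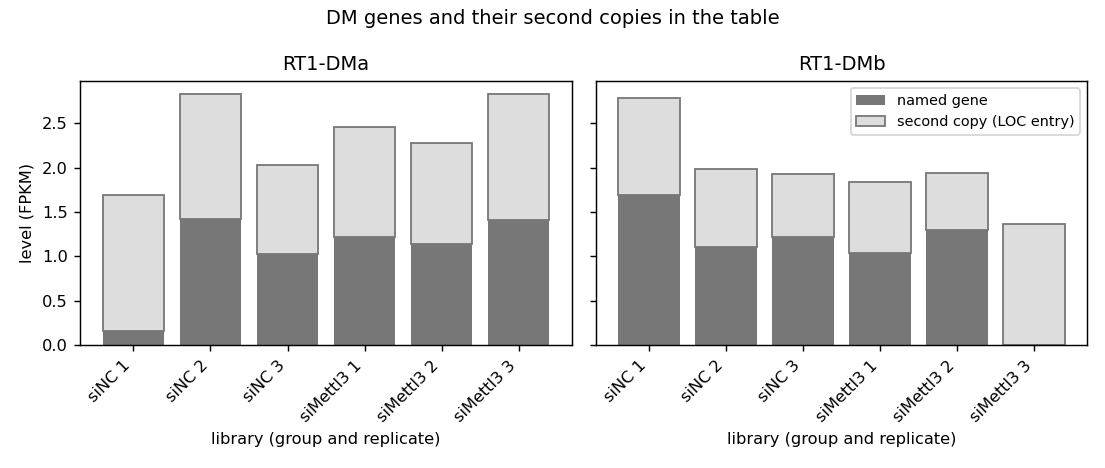
Level in FPKM of RT1-DMa and RT1-DMb (dark) and of the entries of similar description, LOC108348072 and LOC108348139 (light), stacked for each library. The dark part is low in siNC replicate 1 for RT1-DMa and absent in siMettl3 replicate 3 for RT1-DMb.

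Of the 50 tested genes in lists of other pathway genes, chosen by function, 8 passed, 3 higher and 5 lower, which is 16% beside 10.9% of all tested genes. Of 8 peptide loading and trimming genes 0 passed by limma, edgeR or DESeq2 and 2 had an unadjusted p under 0.05. Quantile normalization called 2 of them higher, the chaperones Calr and Hspa5 (Hspa5: limma adjusted p = 0.0333, range 0.0333 to 0.384 over all alternatives). The median difference of the list was 0.13 beside 0.07 for all tested genes. All 8 lay above 0 on deposited FPKM, against 7 after median-ratio scaling and in DESeq2 and 6 in edgeR. Of these 8, Lnpep had a count of 0 in siMettl3 replicate 1, and its sign is uncertain (log2 0.16, SE 0.704). The smallest adjusted p was that of Erap1, the aminopeptidase that trims class I peptides (log2 0.15, limma adjusted p = 0.126). Of 6 genes of the immunoproteasome, its activator and its assembly factor 0 passed by those 3 tools, and 1 had an unadjusted p under 0.05, the activator subunit Psme1 (log2 0.27, limma adjusted p = 0.0760). Psmb9, whose gene stands head to head with Tap1, measured 37.5, 36.7 and 34.0 FPKM in siNC and 28.7, 28.9 and 37.9 FPKM in siMettl3 and did not pass (log2 -0.18, limma adjusted p = 0.294). Quantile normalization called Psme1 higher (adjusted p = 0.00642, range 0.00642 to 0.230 over all alternatives).

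Where 4.4% of all tested genes fell, 1 of 8 class II processing genes fell and 0 rose. It was Ctss, cathepsin S, which cleaves the invariant chain, with 4.45, 3.40 and 3.78 FPKM in siNC and 1.13, 1.34 and 1.95 FPKM in siMettl3 (log2 -0.99, SE 0.145, limma adjusted p = 0.0140). It was lost without siNC replicate 1 (0.0613) or siMettl3 replicate 1 (0.0555). DESeq2 also called the cathepsins Ctsl and Ctsb lower (adjusted p = 0.0286 and 0.0476), which limma did not (0.168 and 0.298). The lysosomal thiol reductase Ifi30 did not pass (log2 0.20, limma adjusted p = 0.0734). Among 11 tested MHC transcription factors 1 rose, beside 6.53% of all tested genes. It was Rfxap, a subunit of the RFX complex that binds MHC promoters (log2 0.28, limma adjusted p = 0.0420). edgeR did not call Rfxap (adjusted p = 0.116), nor did DESeq2 (0.0805). DESeq2 called the interferon regulatory factors Irf1 and Irf8 lower (adjusted p = 0.0311 and 0.0145), which limma did not (0.152 and 0.108).

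Of 10 tested genes of interferon signalling 2 rose, where 6.53% of all tested genes did. The transcription factor subunit Stat2 was lower (log2 -0.30, limma adjusted p = 0.0315), and the receptor chain Ifnar1 (log2 0.31, limma adjusted p = 0.0228) and the kinase Tyk2 that docks on it (log2 0.38, limma adjusted p = 0.0460) were higher. edgeR did not call Tyk2 (adjusted p = 0.0592). Of the ligands, which were singled out after their values were seen, Ifnb1 stayed under 1 FPKM in each library, and Ifng had counts of 0, 0 and 0 in siNC and of 0, 0 and 4 in siMettl3. Among 5 tested class I-like molecules with other names 1 fell, beside 4.4% of all tested genes. It was the neonatal Fc receptor chain Fcgrt (log2 -0.38, limma adjusted p = 0.0340), which also pairs with B2m. Of 3 tested co-stimulatory and checkpoint molecules 1 fell, beside 4.4% of all tested genes. It was Cd274, the ligand PD-L1, with 9.96, 9.41 and 11.4 FPKM in siNC and 7.71, 7.11 and 7.31 FPKM in siMettl3 (log2 -0.42, limma adjusted p = 0.0255). Cd40 just missed the threshold (log2 -0.28, limma adjusted p = 0.0572; edgeR adjusted p = 0.0477).

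With 1 library left out, Stat2 stayed called only without siMettl3 replicate 3 (up to 0.112 in the other fits), Ifnar1 only without siNC replicate 3 (up to 0.0902), Fcgrt only without siMettl3 replicate 3 (up to 0.103), and Cd274 only without siNC replicates 2 and 3 (up to 0.0867). Rfxap and Tyk2 were lost in all 6 such fits (limma adjusted p from 0.0801 to 0.134 and from 0.0690 to 0.121), and also after median-ratio scaling (0.0872 and 0.0748). Without the minimum level, Fcgrt, Rfxap and Tyk2 were lost (0.0585, 0.0775 and 0.0843).

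**Figure D5:**
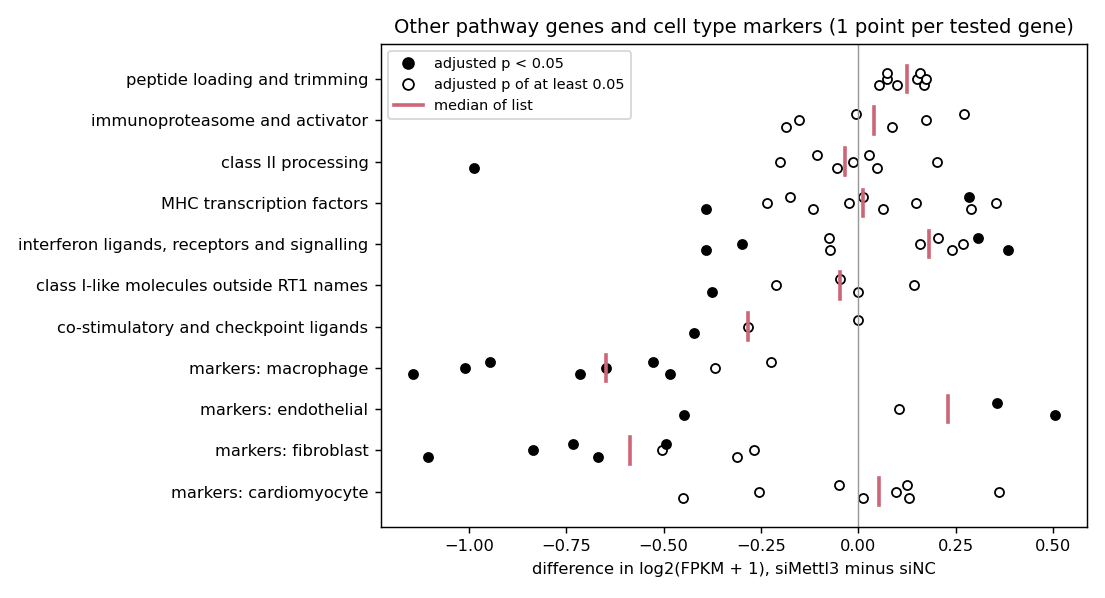
Difference in log2(FPKM + 1) between siMettl3 and siNC for each tested gene of the pathway lists and of the cell type markers, with a red line at the median of each list; filled points passed the threshold. The points of the peptide loading list lie just above 0 on deposited FPKM (7 of 8 after median-ratio scaling and in DESeq2, 6 of 8 in edgeR), whereas those of the macrophage and fibroblast markers lie below it.

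Markers of other cells moved between the same groups, where 4.4% of all tested genes fell and 6.53% rose by limma. Of 14 macrophage markers 9 were tested, 7 fell and 0 rose, and their summed level was 88.3 to 108 FPKM in siNC and 46.0 to 61.3 FPKM in siMettl3; 0 of the 14 had a count of 0 in every library. Of 8 fibroblast markers, all tested, 5 fell and 0 rose, with sums of 1430.3 to 1491 FPKM in siNC and 868 to 923 FPKM in siMettl3. Of 4 tested endothelial markers, from 7 found, 2 rose and 1 fell, with sums of 15.4 to 17.8 FPKM in siNC and 17.7 to 19.1 FPKM in siMettl3. The 8 cardiomyocyte markers, which identify the labelled cell type, summed to 12971 to 14474 FPKM in siNC and 11759 to 13364 FPKM in siMettl3. Of these 0 passed by limma, 2 by edgeR and 2 by DESeq2, with 2 at an unadjusted p under 0.05 in limma. The 2 were Actc1 and Myh7 in each case, both lower (limma adjusted p = 0.0845 and 0.0617). By limma 5 of the 8 had a log2 difference above 0 and 3 below. The 5 T and NK cell markers found summed to 0.686 to 1.32 FPKM in siNC and 0.306 to 0.619 FPKM in siMettl3, with Cd3e and Cd3d at a count of 0 throughout. The part of these markers in the changes of Tap1, Nlrc5, Ctss and the heavy chains was not tested. The class II chains, which macrophages can express, summed to 0.590, 0.835 and 0.715 FPKM in siNC and 0.755, 0.609 and 0.565 FPKM in siMettl3.

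Of the 24 tested members 21 had a promoter window in RefSeq (32 of all 38), and motifs were looked for in the 250 bases before the start on both strands. The ISRE core was in 7 of the 21 windows, or 33.3%, against 3.41% of all 33469 windows of the same length. They were those of Tap1, Tap2, Tapbp, B2m, RT1-S2, RT1-S3 and RT1-N3, so the window of Tap1 and of RT1-N3, which fell, held it, and so did 5 of genes that did not pass. In Tap2 the match began 41 bases before the start, and Tapbp had 2 overlapping matches at 26 and 20 bases. The NF-kB consensus was in 9 windows (42.9%, against 6.33% of all), of which Tap1 was the one that passed the test. In B2m the NF-kB match began 13 bases after the first base of the ISRE core. CCAAT, the letters of the Y box, was in 15 (71.4%, against 34.0%), TGACG, as in the X2 box, in 5 (23.8%, against 18.2%), and the GAS element TTCNNNGAA in 1, that of RT1-M3-1 (4.76%, against 7.67%). Neither of the rising genes, RT1-T24-3 and RT1-T24-4, had an ISRE core or an NF-kB consensus in this window. These matches are descriptions of letters and not sites of binding, and near matches were not looked for.

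The 15 heavy chain windows were also compared with each other over 105 pairs. The median identity was 49.8% after global alignment and the range 44.8% to 82.5%, the highest between RT1-CE10 and RT1-CE4. RT1-A2 and RT1-CE5 shared 82.2%. RT1-N2 and RT1-N3, which both fell, shared 49.7%, and RT1-T24-3 and RT1-T24-4, which both rose, 47.5%. Annotated starts of related genes may differ, so a low identity here does not show that their promoters differ.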

How the data were processed

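RNA was measured in 6 libraries, 3 per group. The authors' deposited table gives, per the file headers, FPKM and a count for each of 32623 genes; 0.0001 FPKM stood wherever the count was 0. The submitters' processing notes name Bowtie 0.12.2 and the build mm8 without a role, although the genes are rat genes; the quantifier, annotation, strand setting and treatment of reads matching several genes are not given in the sources used here. The deposited counts summed to 71202469 to 76668751 per library.

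log2(FPKM + 1) of the 13105 genes that averaged 1 FPKM or more was compared with limma 3.58.1 (R 4.3.3; trend, two-sided, Benjamini-Hochberg over all of them, threshold 0.05); the added 1 understates changes of low genes. Alternatives were edgeR 4.0.16 (quasi-likelihood, TMM) and DESeq2 1.42.0 on the deposited counts, a pseudocount of 0.1, no minimum and a minimum of 5 FPKM. Others were median-ratio and quantile scaling, each library left out and a replicate block. Sums of each DM gene with its LOC entry of similar description were added after seeing the data. The limma and edgeR fits were also run on simulated counts with the same dispersion set for every gene. That run checked the code and does not bear on the calls made here. Sequences are from RefSeq (GRCr8), matched by symbol, and aligned with Biopython 1.88. The members and lists were chosen with earlier results of these data known. Named were all members, by value per library or as a range, Mettl3, and of each pathway list up to 4 tested genes with the smallest adjusted p and all that passed where 5 or fewer did in a direction. Some items of the lists are not reported here.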

Additional observations from a re-analysis of the deposited data

How the results depend on the processing

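The count of genes called over the whole table was 1432, and 2394 by DESeq2, 903 with no minimum level and 206 to 861 with 1 library left out. The 7 members called became 1 to 6 with 1 library left out, lowest without siMettl3 replicate 1 and next without siNC replicate 1, and the 8 called genes of the pathway lists became 5 with no minimum level and 0 to 4 with 1 library left out. The fit with the replicate number as a block called 6 genes over the whole table, 0 members and 0 pathway genes by limma, with 10 members and 13 pathway genes at an unadjusted p under 0.05; its adjusted p for Mettl3 was 0.0726. Libraries of the same number did not deviate together (correlations of 0.0346, -0.255 and -0.119 for replicates 1, 2 and 3). With 3 libraries per group these correlations cannot decide whether the numbers pair the samples. The log2 difference of 3 members that never passed turned sign with 1 library left out; the cause was not tested. That of RT1-M3-1 ran from -0.12 to 0.0598 over these fits, above 0 without siNC replicate 1. That of RT1-CE1 ran from -0.14 to 0.0418, above 0 without siNC replicate 2, siNC replicate 3 or siMettl3 replicate 1. That of RT1-T24-1 ran from -0.20 to 0.0108, above 0 without siMettl3 replicate 2. No sign of a called member turned in any alternative listed. RT1-N2 and Ctss average under 5 FPKM and were not tested at that minimum. Depth limits the 14 members under 1 FPKM, whose counts reached at most 175 in any library.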
